A study of Homo sapiens with 6 samples.

Results

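Telomere proteins were followed in U2OS, a human osteosarcoma cell line that keeps its telomeres without telomerase, by the recombination route called alternative lengthening of telomeres (ALT). The genes were chosen by name: the shelterin genes TERF1, TERF2, TERF2IP, TINF2, ACD and POT1, the telomerase reverse transcriptase gene TERT, the chromatin genes ATRX and DAXX, and the telomere helicase gene RTEL1. All 10 were among the 19977 gene symbols of the deposited table. The series measured polyadenylated RNA 48 hours after transfection with an siRNA against NUDT5 (siNUDT5), a hydrolase of ADP-ribose, or with a non-targeting siRNA (siCtrl). Each of the 2 groups had 3 libraries, all from U2OS cells otherwise untreated. The sources used here give neither the sequences nor the number of the siRNAs. Nor do they tell whether the 3 libraries of a group were grown as separate cultures. The p-values below therefore rest on the spread among these libraries, and that spread may be technical. Values are TPM, a unit that corrects for the length of transcripts and brings each library to the same total.

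Shelterin is the complex that coats telomeric DNA and hides chromosome ends from the DNA damage machinery. TRF1 and TRF2, the products of TERF1 and TERF2, bind the double-stranded repeat, TIN2 (TINF2) bridges them, TPP1 (ACD) joins TIN2 to POT1 on the single-stranded overhang, and RAP1 (TERF2IP) rides on TRF2. ATRX and DAXX deposit the histone variant H3.3 at telomeres, and loss of ATRX function is a common mark of ALT tumours. U2OS is itself known as a line without ATRX protein.

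The knockdown was present in every siNUDT5 library. NUDT5 stood at 3.04, 2.74 and 2.67 TPM in siNUDT5 1 to 3 and at 46.2, 49.0 and 52.0 TPM in siCtrl 1 to 3, a log2 change of -3.71 with adjusted p = 1.32e-06 (limma over all genes tested). Permuting its TPM between the groups (exact, two-sided) gave p = 0.1, and 3 against 3 libraries can give no smaller p. Total depth is lost in TPM, yet low values move in steps of whole reads, which put the libraries at 64.1% to 118% of the depth of siCtrl 1. The shallowest, siCtrl 2, also stood apart in expression, with a median absolute difference of 0.296 and 0.227 from siCtrl 1 and siCtrl 3 on the log2(TPM + 1) scale, against 0.0967 to 0.134 for the other 4 pairs within a group. Mesenchymal markers summed to 4770 to 4870 TPM in siNUDT5 and 4060 to 4360 TPM in siCtrl over 7 genes, mostly VIM, SPARC and COL1A1. Of the 7, the osteoblast factor SP7 was listed at 0 and COL1A2 was at most 0.393 TPM in any library. Epithelial markers summed to 13.2 to 14 TPM in siNUDT5 and 16.9 to 20.3 TPM in siCtrl over 4 genes, haematopoietic and endothelial ones to at most 0.527 TPM, with CD3E at 0. Of these markers EPCAM passed the threshold used below, at 5.10 to 5.70 TPM in siNUDT5 and 7.18 to 12.8 TPM in siCtrl (adjusted p = 0.0271, limma), while CDH1 and CLDN4 overlapped between the groups, and ALPL, a mesenchymal marker, passed as well, higher in siNUDT5 (adjusted p = 0.0472, limma). The part of these markers in the results was not tested.

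TERF2IP was the 1 telomere gene of the 9 tested whose mRNA passed the threshold, and it rose to 152% of its siCtrl mean. The other 8 did not pass, and TERT, which was not tested, was at most 0.0411 TPM in any library. The threshold was a two-sided limma p on log2(TPM + 1) under 0.05 after Benjamini-Hochberg adjustment over the 12236 genes that averaged 1 TPM or more, and 16.1% of those genes passed it. By direction, 10.9% of all genes tested rose and 5.20% fell. The 9 tested members had a median log2 change of -0.07, beside 0.05 over all genes tested. In bulk RNA a change in RNA per cell and in the share of cells that express a gene cannot be told apart.

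**Figure D1:**
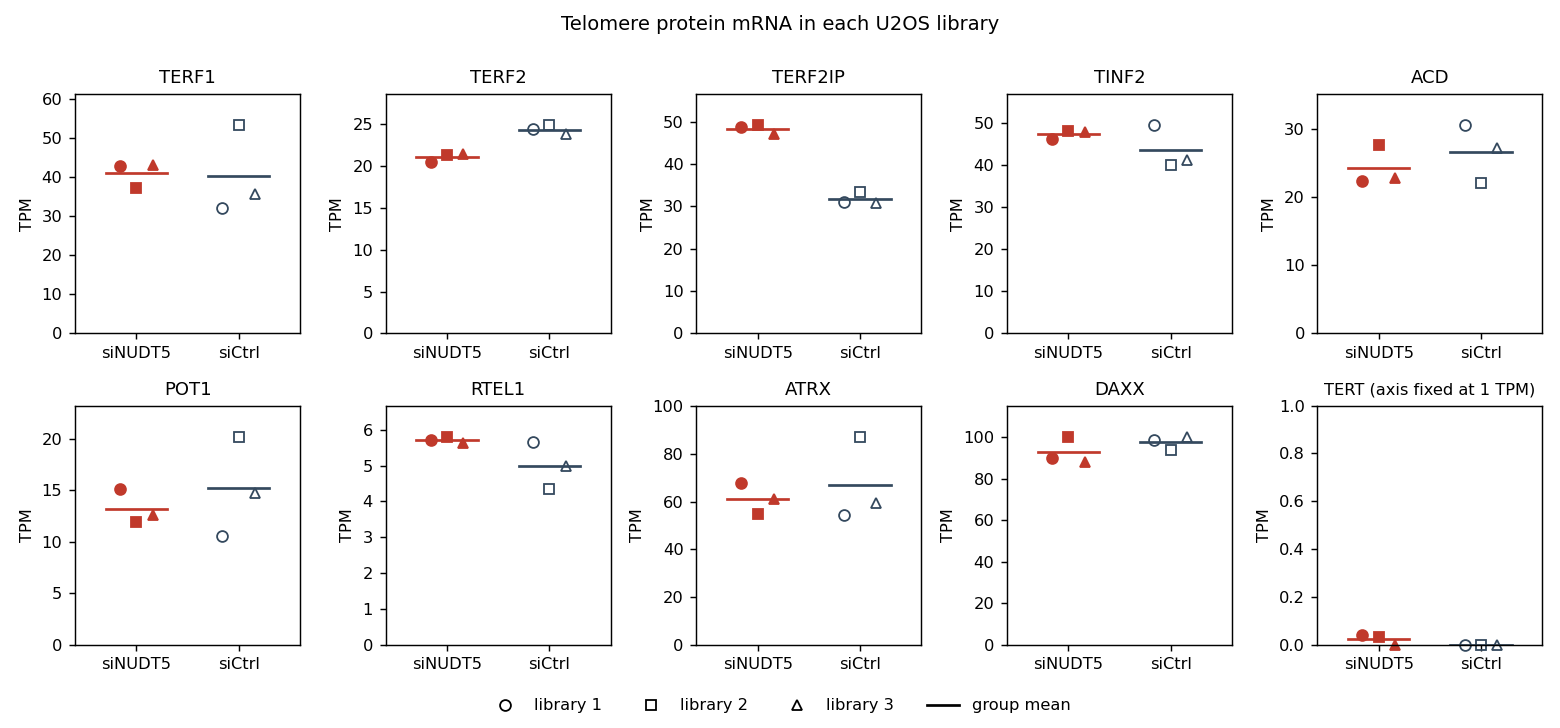
TPM of the 10 genes in each library (y axes, from 0), with siNUDT5 filled, siCtrl open, 1 symbol shape per library number and a line at the group mean. TERF2IP lies at 47.2 to 49.1 TPM in siNUDT5 and 30.9 to 33.4 TPM in siCtrl, TERF1, POT1 and ATRX are highest in siCtrl 2, and TERT stays at or near 0 on its axis of 1 TPM.

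In the siCtrl libraries the 10 genes spanned a wide range of levels. DAXX led at 97.6 ± 3.36 TPM and ATRX followed at 67.0 ± 17.7 TPM (SD, n = 3 each), and their ranges did not overlap. Next came TINF2 (43.5 ± 5.17 TPM), TERF1 (40.4 ± 11.3 TPM) and TERF2IP (31.8 ± 1.42 TPM), where each overlapped its neighbour in the order. ACD (26.7 ± 4.26 TPM) and TERF2 (24.4 ± 0.535 TPM) overlapped too. POT1 lay below them at 15.2 ± 4.82 TPM and RTEL1 below POT1 at 5.00 ± 0.651 TPM, both apart from their neighbours. By mean TPM over the 6 libraries, the 9 genes stood between the 19.2 percentile (RTEL1) and the 84.6 percentile (DAXX) of the genes tested. The siNUDT5 order differed in TERF2IP, which came next after ATRX at 48.3 ± 0.993 TPM, with a range that overlapped that of TINF2 at 47.5 ± 1.03 TPM and lay above that of TERF1 at 41.1 ± 3.27 TPM (SD, n = 3 each).

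TERF2IP encodes RAP1, the shelterin subunit that depends on TRF2 for its place at telomeres and that also has roles away from them. Its mRNA was measured at 48.6, 49.1 and 47.2 TPM in siNUDT5 1 to 3, against 31.1, 33.4 and 30.9 TPM in siCtrl 1 to 3. Every siNUDT5 library lay above every siCtrl library, as in 24.3% of all genes tested. The gap between the groups was wider than the spread within either group. On the log2(TPM + 1) scale the change was 0.59 with a standard error of 0.08 and a 95% interval of 0.40 to 0.78, or a fold of 1.32 to 1.71 (adjusted p = 0.00309, limma). The exact two-sided permutation p of its TPM was 0.1, again the smallest possible.

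TERF2 encodes TRF2, the protein that RAP1 binds and that closes the chromosome end into a protective loop. Its level was 20.5, 21.3 and 21.5 TPM in siNUDT5 1 to 3, against 24.5, 24.9 and 23.8 TPM in siCtrl 1 to 3. The groups did not overlap, as in 37.3% of all genes tested (12.9% with siNUDT5 lower), and among the members this held for TERF2 and TERF2IP. The log2 change of TERF2 was -0.20, with a 95% interval of -0.39 to -0.01 and an adjusted p of 0.147 (limma), so it did not pass. Within a library, the ratio of TERF2IP to TERF2 was 2.38, 2.30 and 2.19 in siNUDT5 1 to 3, against 1.27 to 1.34 in siCtrl. This ratio does not depend on how a library is scaled. With TERF2IP higher and TERF2 lower in every siNUDT5 library, the groups could not overlap in it, so the ratio adds no separate support.

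Summed over the shelterin genes, TPM came to 196, 196 and 195 in siNUDT5 1 to 3, against 178, 194 and 174 in siCtrl 1 to 3. TERF2IP held 24.2% to 25.1% of that sum in siNUDT5 and 17.2% to 17.8% in siCtrl. Without TERF2IP, the remaining 5 genes summed to 146 to 148 TPM in siNUDT5 and 143 to 160 TPM in siCtrl, which overlapped.

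**Figure D2:**
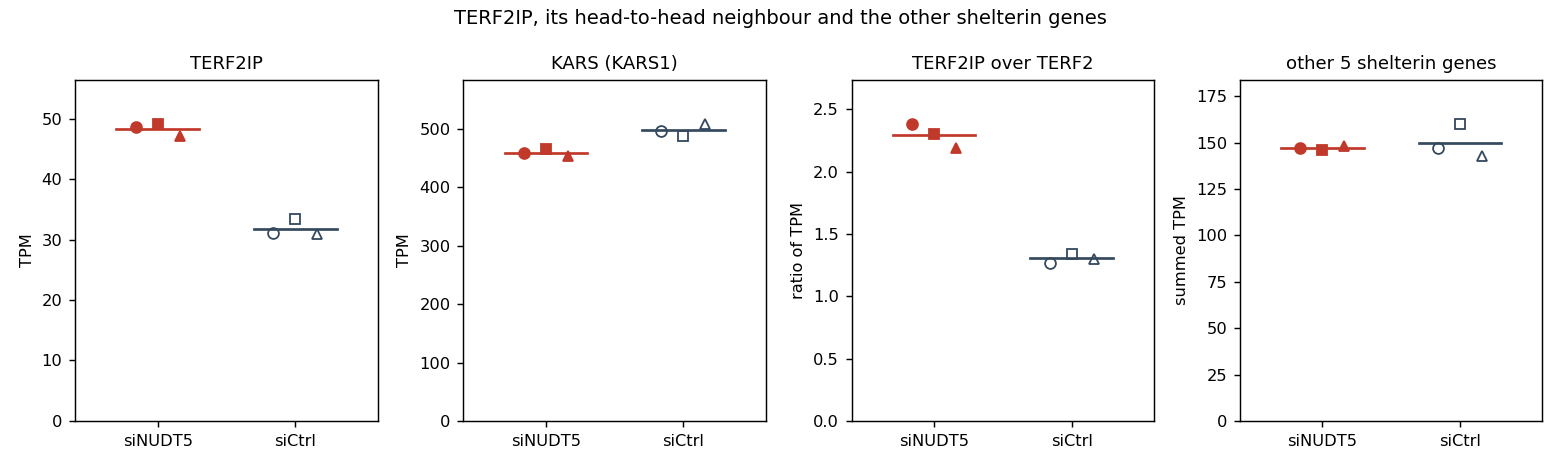
From left to right, TPM of TERF2IP, TPM of its neighbour KARS (KARS1), the ratio of TERF2IP to TERF2 TPM, and the summed TPM of the remaining 5 shelterin genes, in each library (points, shapes by library number) with group means as lines; y axes start at 0. The ratio is 2.19 to 2.38 in siNUDT5 and 1.27 to 1.34 in siCtrl, while the sum of the remaining genes overlaps between the groups.

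TERF2IP lies on chromosome 16, head to head with KARS1 (KARS in the table), the gene of lysyl-tRNA synthetase, and its promoter window is shown because it covers the starts of both genes and TERF2IP is the member that passed. RefSeq's window from 250 bases before to 50 bases after the TERF2IP start, chr16:75647523-75647822 on the plus strand of GRCh38.p14, shares 207 of its 300 bases with the window of KARS1 on the minus strand. The 107 bases between the first bases of the 2 genes are in capitals, and 65.4% of them are G or C.
TERF2IP promoter: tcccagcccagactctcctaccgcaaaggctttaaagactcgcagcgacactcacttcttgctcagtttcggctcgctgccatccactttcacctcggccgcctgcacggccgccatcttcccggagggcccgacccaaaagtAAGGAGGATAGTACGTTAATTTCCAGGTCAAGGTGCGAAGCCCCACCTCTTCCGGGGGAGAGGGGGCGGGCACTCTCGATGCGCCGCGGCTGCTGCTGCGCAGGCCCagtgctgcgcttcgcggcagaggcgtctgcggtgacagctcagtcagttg
KARS did not pass the threshold. Its level was 459, 466 and 454 TPM in siNUDT5 1 to 3, against 497, 488 and 508 TPM in siCtrl 1 to 3, a log2 change of -0.11 with a 95% interval of -0.26 to 0.03 (adjusted p = 0.255, limma), and its groups did not overlap. Within a library, TERF2IP came to 0.106, 0.105 and 0.104 of KARS in siNUDT5 1 to 3 and to 0.0626, 0.0685 and 0.0608 in siCtrl 1 to 3. With TERF2IP higher and KARS lower in every siNUDT5 library, the groups could not overlap in this ratio either. GENCODE 29 names 3 pseudogenes after KARS and none after TERF2IP, and the sources used here do not say how reads shared between copies were treated. KARS was singled out for its position, after its values were seen.

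Of the 20 nearest protein-coding neighbours in RefSeq's order, 11 were tested and 1 passed, STMN3 beside RTEL1, a stathmin family gene that binds tubulin. STMN3 rose to 25.3, 30.9 and 26.0 TPM in siNUDT5 1 to 3, against 14.4, 11.6 and 13.6 TPM in siCtrl 1 to 3 (95% interval of the log2 change 0.73 to 1.27, adjusted p = 0.00186, limma). RTEL1 itself did not pass. The 3 tested genes whose centred log2(TPM + 1) values over the 6 libraries lay nearest to those of TERF2IP were TM4SF1, a tetraspanin-like membrane protein gene (root mean square difference 0.0219), the sphingosine-1-phosphate receptor gene S1PR3 (0.0248) and the fucosyltransferase gene FUT4 (0.0284). TM4SF1 stood at 52.9, 52.3 and 52.1 TPM in siNUDT5 1 to 3, against 33.1, 36.4 and 32.6 TPM in siCtrl 1 to 3.

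TERF1, POT1 and ATRX shared a pattern among the siCtrl libraries. TERF1, whose product TRF1 helps replication forks through the repeat, stood at 42.8, 37.4 and 43.2 TPM in siNUDT5 1 to 3, against 32.0, 53.3 and 35.8 TPM in siCtrl 1 to 3. POT1, which shields the single-stranded overhang, stood at 15.1, 11.9 and 12.5 TPM in siNUDT5 1 to 3, against 10.6, 20.2 and 14.7 TPM in siCtrl 1 to 3. ATRX, a chromatin remodeller, stood at 67.8, 54.6 and 61.1 TPM in siNUDT5 1 to 3, against 54.5, 87.2 and 59.4 TPM in siCtrl 1 to 3. In each gene siCtrl 2, the shallowest library, was the highest of all 6 and siCtrl 1 the lowest. The log2 changes were 0.06 for TERF1, -0.15 for POT1 and -0.11 for ATRX, with 95% intervals of -0.34 to 0.46, -0.62 to 0.32 and -0.50 to 0.29 and adjusted p of 0.864, 0.668 and 0.723 (limma).

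Without siCtrl 2, TERF1 passed, higher in siNUDT5, with a log2 change of 0.27 and an adjusted p of 0.0394 (limma). At that setting 31.1% of all genes tested passed, and 2 of the 9 members, TERF1 and TERF2IP, both higher. POT1 then had a log2 change of 0.07 and ATRX of 0.10, both on the other side of 0 from the values with all libraries and neither past the threshold. TERF1 has 5 pseudogenes named after it in GENCODE 29, and whether its level holds reads of copies was not tested. The level of ATRX is a sum over the gene and does not show which exons its reads came from.

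TINF2, ACD, DAXX and RTEL1 had their lowest siCtrl value in siCtrl 2. Their highest siCtrl value was in siCtrl 1, except in DAXX, where it was in siCtrl 3. TINF2, whose product TIN2 links the complex together, stood at 46.3, 48.2 and 47.9 TPM in siNUDT5 1 to 3, against 49.5, 39.9 and 41.2 TPM in siCtrl 1 to 3. ACD, whose product TPP1 carries POT1 and is the shelterin contact of telomerase, stood at 22.3, 27.6 and 22.8 TPM in siNUDT5 1 to 3, against 30.6, 22.1 and 27.3 TPM in siCtrl 1 to 3. The groups overlapped in both genes, with log2 changes of 0.13 for TINF2 and -0.12 for ACD and 95% intervals of -0.10 to 0.36 and -0.44 to 0.19. Their adjusted p were 0.433 and 0.593 (limma).

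DAXX, the H3.3 chaperone that works with ATRX, stood at 90.2, 100.2 and 88.2 TPM in siNUDT5 1 to 3, against 98.6, 93.8 and 100.3 TPM in siCtrl 1 to 3. Its log2 change was -0.07 with a 95% interval of -0.26 to 0.12 (adjusted p = 0.608, limma). The groups overlapped. RTEL1, a helicase that unwinds the telomeric loop ahead of replication, stood at 5.73, 5.81 and 5.63 TPM in siNUDT5 1 to 3, against 5.66, 4.36 and 4.98 TPM in siCtrl 1 to 3. The groups touched through siCtrl 1, and the log2 change was 0.17 with a 95% interval of -0.09 to 0.43 (adjusted p = 0.352, limma). RTEL1 shares its locus with TNFRSF6B, which was at most 0.515 TPM in any library, and GENCODE 29 names 1 pseudogene after RTEL1.

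**Figure D3:**
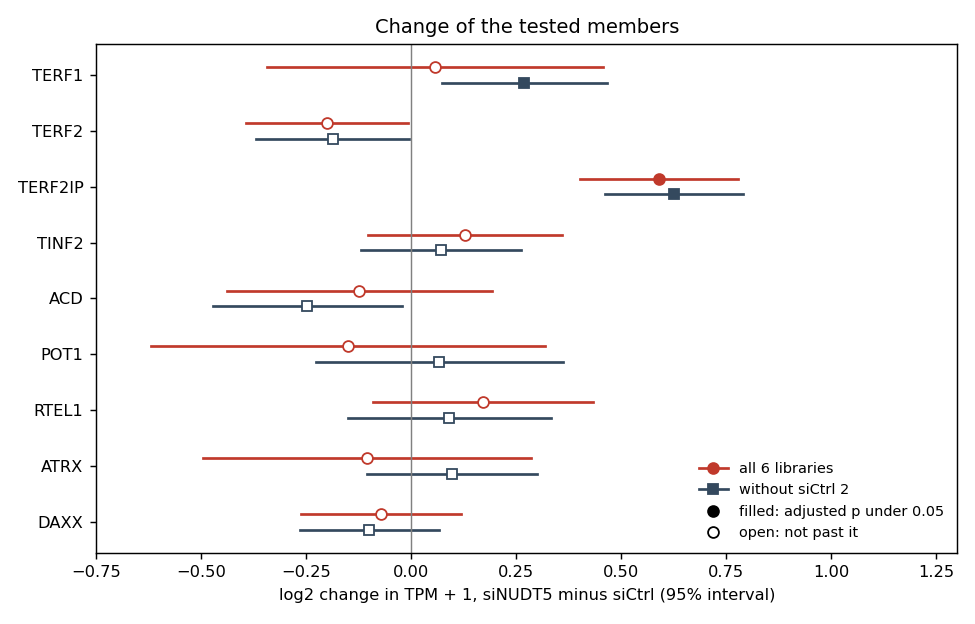
Log2 change of TPM + 1, siNUDT5 minus siCtrl, for the 9 tested genes with 95% intervals (x axis), with all 6 libraries (circles) and without siCtrl 2 (squares); filled symbols have an adjusted p under 0.05. TERF2IP is at 0.59 and 0.63, and TERF1 at 0.06 and 0.27.

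TERT was listed at 0 in all 3 siCtrl libraries. In siNUDT5 1 and 2 it was listed at 0.0411 and 0.0311 TPM and in siNUDT5 3 at 0, so it stayed under the filter and was not tested. The value in siNUDT5 1 was 1.32 times that in siNUDT5 2, and the depth of siNUDT5 2 was 1.32 times that of siNUDT5 1. No difference between the groups was detectable at this depth.

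RefSeq's table gave a promoter window for 6 of the 10 genes. These 6 genes had 8 windows, and a gene counted if any of its windows held a word, while the shares below are of single windows. The telomere repeat TTAGGG, read on both strands, was in none of the genes and in 9.1% of the 35116 windows of the table. GGGCGG, on both strands, was in all 6 genes and in 45.0% of windows. In the annotated 3' ends, the words AAGACTT and AGACTTA, picked in an earlier search over these same log2 changes, were in ACD and ATRX, 2 of the 10 genes, against 24.2% of the 11479 genes searched. The 3' end searched was 832 bases long in ACD and 9745 in ATRX, and the counts were not adjusted for length. ACD and ATRX both held the joined word AAGACTTA, whose share over all genes was not computed. It is in capitals below, starting at base 199 after the stop codon in ACD and base 860 in ATRX.
ACD site: ggttgcaaccAAGACTTAgatgttcaga
ATRX site: gcattggaagAAGACTTAaattccgagt
Neither gene passed the threshold, with or without siCtrl 2. GATTAAC, another word from that search, was in none of the 10, TERF2IP included, against 6.35% of genes searched.

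The other telomere genes, set out in 5 lists that were chosen with earlier results of these data known, mostly did not pass either. Over the lists 80 genes were tested, 5 rose and 1 fell, beside the 16.1% of all genes that passed, 10.9% higher and 5.20% lower. Median-ratio scaling gave 3 rises and 6 falls, and quantile normalization 3 rises and 7 falls, while over all genes 1334 rose and 636 fell as deposited, 1040 rose and 895 fell with median-ratio scaling, and 1018 rose and 965 fell with quantile normalization. Without siCtrl 2 the lists had 16 rises and 8 falls, where over all genes 2672 rose and 1132 fell, 31.1% of those tested. At that setting the 18 shelterin-associated and end-processing genes had 4 rises and 0 falls. The 27 ALT recombination and PML body genes had 5 rises and 2 falls. The 16 genes for H3.3 deposition and ATRX or DAXX partners had 6 rises and 1 fall. Without siCtrl 3 or any 1 siNUDT5 library the lists had 1 of each, where 764 to 868 of all genes passed.

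None of the 7 genes of the CST complex and DNA polymerase alpha-primase, which fill in the telomeric C strand, passed, and their median log2 change was -0.03. The nearest was the primase gene PRIM1, at 169, 145 and 148 TPM in siNUDT5 1 to 3, against 176, 224 and 186 TPM in siCtrl 1 to 3 (adjusted p = 0.0703, limma). None of the 12 tested genes of the telomerase particle passed either (median -0.07), the dyskerin gene DKC1 included, at 336 to 346 TPM in siNUDT5 and 353 to 385 TPM in siCtrl. The nearest of the 12 was NAF1, at 26.5 to 27.0 TPM in siNUDT5 and 30.4 to 39.2 TPM in siCtrl, without overlap (log2 change -0.34, adjusted p = 0.0622, limma). Without siCtrl 2 NAF1 passed, lower in siNUDT5 (adjusted p = 0.0381, limma). PRIM1, NAF1 and DKC1 were picked out after their values were seen. The telomerase RNA gene TERC was on the same list but was not among the 19977 gene symbols, so it has no level here. At an unadjusted p under 0.05 the counts were 1 of 7 and 3 of 12, beside 31.0% of all genes tested. Without siCtrl 2, 2 of the 7 fell, and of the 12 genes 1 rose and 3 fell, beside 31.1% of all genes tested that passed at that setting.

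Among 18 shelterin-associated and end-processing genes HMBOX1 rose, 17 did not pass and the median was 0.02. HMBOX1 encodes a homeobox protein that binds the double-stranded telomere repeat. Its level was 13.7, 11.3 and 12.4 TPM in siNUDT5 1 to 3, against 8.03, 10.1 and 6.78 TPM in siCtrl 1 to 3 (log2 change 0.55, adjusted p = 0.0372, limma). The groups did not overlap, and the call was lost when any library other than siCtrl 2 was left out, without the filter on low values and with the replicate block. TNKS2, a tankyrase that removes TRF1 from telomeres, did not pass. It was at 60.0, 49.6 and 51.4 TPM in siNUDT5 1 to 3, against 30.7, 48.4 and 35.0 TPM in siCtrl 1 to 3, without overlap (0.51, adjusted p = 0.0682, limma), and was picked out after its values were seen. Without siCtrl 2 it passed, with a log2 change of 0.69 and an adjusted p of 0.00021 (limma).

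Of 27 ALT recombination and PML body genes 2 rose, 1 fell and 24 did not pass, with a median of -0.03. RAD52, a strand-annealing factor used in ALT synthesis, fell to 5.34, 5.42 and 4.15 TPM in siNUDT5 1 to 3, against 8.03, 8.69 and 8.53 TPM in siCtrl 1 to 3 (log2 change -0.66, adjusted p = 0.00859, limma). POLD4, a small subunit of DNA polymerase delta, rose to 33.0, 39.9 and 35.2 TPM in siNUDT5 1 to 3, against 29.1, 19.5 and 24.8 TPM in siCtrl 1 to 3 (0.55, adjusted p = 0.0370). ZNF827, a zinc finger protein that brings the NuRD complex to ALT telomeres, rose to 25.5, 22.3 and 23.4 TPM in siNUDT5 1 to 3, against 17.5, 20.1 and 17.2 TPM in siCtrl 1 to 3 (0.36, adjusted p = 0.0469). The groups did not overlap in any of these genes. PML itself, the scaffold of the bodies where ALT telomeres gather, stood at 10.3, 11.1 and 10.3 TPM in siNUDT5 1 to 3, against 10.3, 6.84 and 9.05 TPM in siCtrl 1 to 3, and did not pass (0.27, adjusted p = 0.241). RAD52 passed with any 1 library left out. The calls of POLD4 and ZNF827 were lost with either rescaling, without the filter on low values, with the replicate block, and without siCtrl 3 or any 1 siNUDT5 library, and that of ZNF827 also without siCtrl 1.

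Of 16 genes for H3.3 deposition and ATRX or DAXX partners 2 rose and 14 did not pass, with a median of 0.11. The 2 were heterochromatin protein (HP1) genes. The remaining HP1 gene of the list, CBX3 (HP1 gamma), overlapped between the groups, at 338 to 395 TPM in siNUDT5 and 340 to 483 TPM in siCtrl. It did not pass (log2 change -0.10, adjusted p = 0.652, limma). CBX1 (HP1 beta) rose to 292, 274 and 268 TPM in siNUDT5 1 to 3, against 64.6, 75.3 and 64.1 TPM in siCtrl 1 to 3 (log2 change 2.02, adjusted p = 2.77e-05, limma). CBX5 (HP1 alpha), to which ATRX binds, rose to 62.5, 57.8 and 61.0 TPM in siNUDT5 1 to 3, against 43.4, 50.4 and 43.8 TPM in siCtrl 1 to 3 (0.39, adjusted p = 0.0232). The call of CBX5 was lost with the replicate block and without siCtrl 3 or any 1 siNUDT5 library. The H3.3 genes themselves did not pass: H3F3A was at 53.9 to 60.4 TPM in siNUDT5 and 48.6 to 52.6 TPM in siCtrl, and H3F3B at 604 to 653 TPM in siNUDT5 and 539.9 to 687 TPM in siCtrl, with adjusted p of 0.153 and 0.746 (limma). The groups of H3F3A did not overlap, and without siCtrl 2 it passed, higher in siNUDT5, with a log2 change of 0.23 and an adjusted p of 0.0414 (limma). GENCODE 29 names 5 pseudogenes after CBX1, 9 after CBX3, 1 after CBX5, 6 after H3F3A and 2 after H3F3B.

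**Figure D4:**
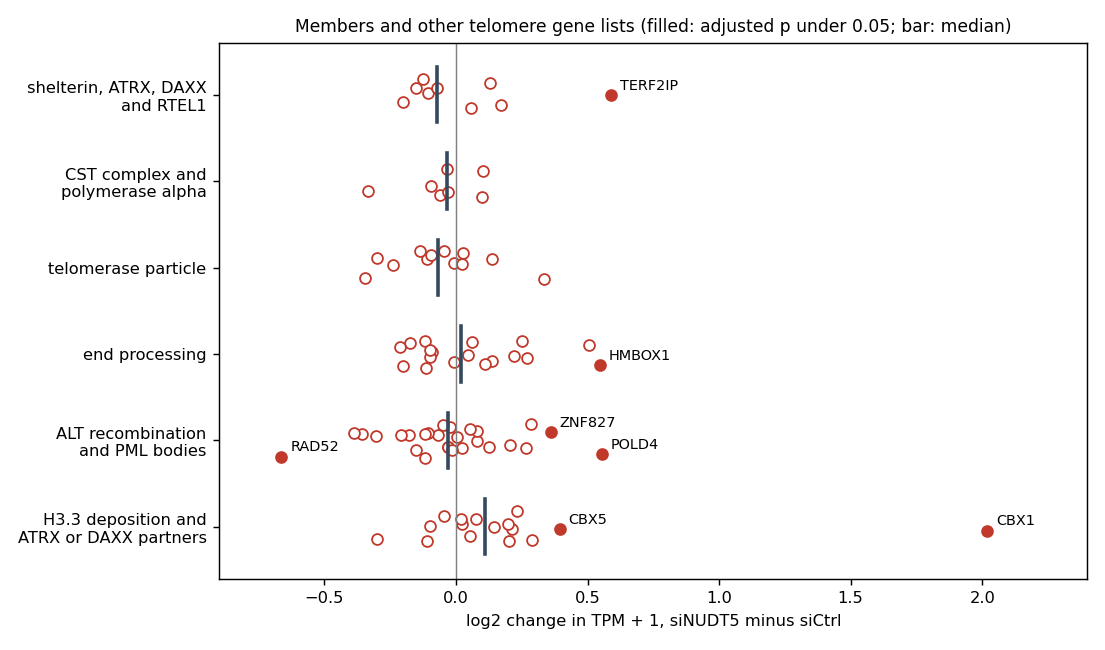
Log2 change of TPM + 1, siNUDT5 minus siCtrl (x axis), of each tested gene (points, spread at random in height) in the members and the 5 lists, with bars at the medians and filled points at an adjusted p under 0.05. The filled points are TERF2IP, HMBOX1, RAD52, POLD4, ZNF827, CBX1 and CBX5, and the medians lie between -0.07 and 0.11.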

How the data were processed

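Per the labels' protocols, 200 ng of total RNA went into each strand-specific KAPA mRNA library. The deposited TPM, per the file headers 1 column per library, sum to the same total in each. STAR 2.7.3a, DESeq2 1.22.1 and hg19 appear in the submitters' processing notes, with no roles stated. The sources used here do not give the annotation, the use of strand or the treatment of shared reads. Groups come from the sample titles. The members, lists and tests were chosen with earlier results of these data known. TPM are not counts, so limma 3.58.1 (R 4.3.3) was fitted to log2(TPM + 1), a scale that understates changes of low genes, with a trend, over genes that averaged 1 TPM or more, and tested on simulated data. By the rule for named genes, the text names the 10 members, NUDT5, list genes past the threshold (up to 5 a list by size), TERC, PML, H3F3A and H3F3B, and the 3 genes nearest to the member that changed most. KARS, STMN3, TNFRSF6B, PRIM1, NAF1, DKC1, TNKS2, CBX3 and the cell type markers fall outside it. They were named for their position, their place in a list or as markers, after their values were seen. Relative depth is the most common ratio of low values to siCtrl 1, and 74% to 82% of those ratios lay within 0.1% of a ratio between whole numbers of at most 5. Sequences are RefSeq's (GRCh38.p14) and GENCODE 29's, matched by symbol. For 93.8% of the genes tested a 3' end could be searched. Exact tests used scipy 1.17.1. Alternatives tried were a pseudocount of 0.1 or of 5, a filter at 5 TPM or none, median-ratio and quantile scaling, no trend, a replicate block and leaving out each library.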

Additional observations from a re-analysis of the deposited data

How the results depend on the processing

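The rise of TERF2IP passed the threshold under all 14 alternatives, with log2 changes of 0.53 (quantile normalization) to 0.63 (without siCtrl 2). NUDT5, CBX1 and RAD52 also passed under all 14. The count of members that passed was 1 in every alternative except without siCtrl 2, a range of 1 to 2 when 1 library was left out. TERF1 ranged from -0.089 to 0.27 over these, POT1 from -0.37 to 0.067, ATRX from -0.24 to 0.097 and H3F3B from -0.023 to 0.15, changing sign, and H3F3B stood at -0.00092 with median-ratio scaling. Genes that passed over the whole table numbered 764 to 3804 with 1 library left out, and list genes 2 to 24, both highest without siCtrl 2. List genes that passed numbered 3 without a filter and 10 with quantile normalization. Same-numbered libraries deviated from their group means with correlations across genes of -0.426, -0.538 and -0.0449. Each mean rests on 3 libraries and siCtrl 2 stood apart, so these values cannot decide whether the replicate numbers pair the libraries. With the replicate block 739 genes passed over the table, 2 in the lists, and TERF2IP still did (adjusted p = 0.0365, limma). No siNUDT5 library correlated best with its own number. Where calls changed, the cause was not tested. With 3 libraries a group, the 95% intervals of members that did not pass were wide, that of POT1 running from -0.62 to 0.32.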
